A study of Mus musculus with 12 samples.

Results

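The matrix metalloproteases (MMPs), the ADAM and ADAMTS proteases, and their tissue inhibitors (TIMPs) were examined in murine BrafV600E melanoma cells that lacked 1 of 3 enzymes of prostaglandin synthesis. Members were taken by gene name, as every gene whose name starts with Mmp, Timp, or Adam followed by a digit, or with Adamts. The rule found 84 of the 30705 gene names in the table. Of these, 23 were MMPs, 4 TIMPs, 33 ADAMs, 19 ADAMTS proteases, and 5 ADAMTS-like proteins. A mean of at least 1 RPKM (reads per kilobase of transcript, scaled for sequencing depth) over all samples was reached by 21 of the 84.

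The 12 RNA-seq samples were 3 of scramble control cells, 3 of *ptgs1*-KO, 3 of *ptgs2*-KO, and 3 of *ptges*-KO cells, in which COX-1, COX-2, or mPGES-1 was knocked out with CRISPR/CAS9. All 4 groups derive from the melanoma of 1 C57BL/6 mouse model, Braf+/LSL-V600E;Tyr::CreERT2+/o;p16INK4a-/-, in which the tyrosinase promoter drives an inducible Cre in melanocytes. The lines were selected with puromycin and subcloned by limiting dilution, and the study describes the 3 samples of a line as subclones. The p-values therefore measure the spread between subclones of 1 line, and a clonal difference and an effect of the knockout cannot be told apart within a line.

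MMPs cleave collagens and other matrix proteins, either after secretion or, for the membrane-type MMPs, at the cell surface. ADAMs are transmembrane proteases that shed growth factors, cytokines, and receptors from the cell surface, whereas ADAMTS proteases are secreted and process procollagens, proteoglycans, and von Willebrand factor. TIMPs bind the active sites of these enzymes, and TIMP-2 also takes part, on the surface protease MMP-14, in the activation of pro-MMP-2. In melanoma this system is known for its part in invasion through the dermis and in the release of ErbB ligands.

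Facts of the libraries bear on the levels below. Each targeted gene was lowest in its own line, *Ptgs1* at 10.6%, *Ptgs2* at 10.5%, and *Ptges* at 47.9% of its scramble mean. The lines were not altered in their own target alone. In *ptgs1*-KO cells *Ptges* was at 70.2% and *Ptgs2* at 78.5% of the scramble mean, and in *ptgs2*-KO cells *Ptges* was at 86.7%. The summed values were between 878504 and 903881 RPKM per sample. In *ptgs1*-KO replicate 3 the transcript AK155692 took 8.24% of the sum, whereas the highest gene of each other sample took 2.84% to 4.28%. Samples of 1 line correlated with r from 0.984 to 0.995 across genes on log2(RPKM + 1), and samples of different lines with 0.962 to 0.985. Within a line, the deviations of the samples from their mean correlated with transcript length across genes, with Spearman's rho from -0.54 to 0.62. Of 9 melanocyte markers, only *Mitf* and *Erbb3* reached a mean of 1 RPKM, and *Sox10*, *Tyrp1*, *Dct*, and *Mlana*, which define pigment cells, were listed at 0 in all samples. The 9 markers summed to 5.95 to 6.24 RPKM in scramble, 4.91 to 6.69 in *ptgs1*-KO, 3.37 to 5.01 in *ptgs2*-KO, and 4.33 to 5.40 in *ptges*-KO cells. The sum of 6 fibroblast markers, of which only *Pdgfra* reached 1 RPKM and *Dcn* and *Lum* were at 0, was 8.34 to 8.89, 10.9 to 12.5, 3.81 to 4.98, and 5.03 to 6.01 RPKM in the same order. Leukocyte markers summed to 0.660 to 2.08 RPKM, with *Cd3e* and *Adgre1* (listed as *Emr1*) at 0. Of them only *Cd68* reached a mean of 1 RPKM, at 1.13, with samples from 0.63 to 2.05. Its log2 difference from scramble was -0.62 in *ptges*-KO cells, where it was called lower by the test described below. By the same test *Pdgfra* was called lower in *ptgs2*-KO (-0.93) and *ptges*-KO cells (-0.52). Of the 2 melanocyte markers tested, 1 was called lower in *ptgs2*-KO cells. Endothelial markers summed to at most 0.17 RPKM, and the 3 keratinocyte markers were at 0. The part of these marker differences in the results below was not tested.

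The promoters of members that the results turn on are shown here, since 5 members fell in *ptges*-KO cells under each alternative that kept the gene. Also shown are those of 2 low members, *Adamtsl3* and *Mmp10*. These 2 were picked by their higher values in *ptges*-KO cells, which are a description, with no test. *Adamts7*, the remaining gene of the 5, is named only. Each sequence is the 250 bases before the RefSeq start on GRCm38.p6, written 5′ to 3′ on the strand of the gene. Capitals mark 2 kinds of motif found on either strand, the GC box GGGCGG, bound by Sp1 family factors, and the AP-1 motif TGANTCA, the classical element of MMP promoters. The cAMP response element TGACGTCA, bound by CREB downstream of the PGE2 receptors EP2 and EP4, was searched as well. Motifs that overlap were each counted.
*Adamtsl5*, chr10:80348449-80348698, minus strand: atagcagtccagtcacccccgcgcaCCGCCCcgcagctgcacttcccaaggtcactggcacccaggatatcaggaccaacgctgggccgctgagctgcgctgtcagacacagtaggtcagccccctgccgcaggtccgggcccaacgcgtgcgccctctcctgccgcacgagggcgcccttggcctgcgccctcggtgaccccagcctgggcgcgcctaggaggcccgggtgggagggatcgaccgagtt
*Adamtsl4*, chr3:95687918-95688167, minus strand: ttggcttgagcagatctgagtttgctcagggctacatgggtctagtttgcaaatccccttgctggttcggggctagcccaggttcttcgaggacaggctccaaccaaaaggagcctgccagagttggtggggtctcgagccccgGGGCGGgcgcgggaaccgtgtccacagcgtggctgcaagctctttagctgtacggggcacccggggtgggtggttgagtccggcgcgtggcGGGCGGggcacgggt
*Adamts14*, chr10:61273420-61273669, minus strand: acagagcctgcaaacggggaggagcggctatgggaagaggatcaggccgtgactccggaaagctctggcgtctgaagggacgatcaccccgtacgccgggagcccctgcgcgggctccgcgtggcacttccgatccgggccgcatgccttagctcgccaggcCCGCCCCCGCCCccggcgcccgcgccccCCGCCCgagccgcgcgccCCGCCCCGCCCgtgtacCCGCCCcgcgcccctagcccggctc
*Mmp11*, chr10:75932503-75932752, minus strand: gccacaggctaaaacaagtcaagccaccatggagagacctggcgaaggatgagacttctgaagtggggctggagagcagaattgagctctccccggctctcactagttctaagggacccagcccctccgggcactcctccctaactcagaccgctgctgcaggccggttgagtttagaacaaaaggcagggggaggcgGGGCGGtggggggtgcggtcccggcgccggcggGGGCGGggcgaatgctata
*Adamtsl3*, chr7:82335444-82335693, plus strand: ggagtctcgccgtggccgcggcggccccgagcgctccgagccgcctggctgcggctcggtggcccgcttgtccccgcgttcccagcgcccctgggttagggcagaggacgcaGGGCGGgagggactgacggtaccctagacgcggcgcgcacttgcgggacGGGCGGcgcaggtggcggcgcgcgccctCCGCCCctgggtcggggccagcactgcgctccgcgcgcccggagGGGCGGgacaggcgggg
*Mmp10*, chr9:7502092-7502341, plus strand: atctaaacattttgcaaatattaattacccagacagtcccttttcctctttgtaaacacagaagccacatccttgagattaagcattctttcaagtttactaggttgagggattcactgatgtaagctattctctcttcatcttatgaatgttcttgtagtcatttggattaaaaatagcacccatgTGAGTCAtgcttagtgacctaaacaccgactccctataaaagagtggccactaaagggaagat

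The 4 promoters of members that fell held 1, 2, 6, and 2 GC boxes for *Adamtsl5*, *Adamtsl4*, *Adamts14*, and *Mmp11*, and no AP-1 motif. Their GC content was 70.8%, 64.4%, 76.4%, and 63.2%. The *Adamtsl3* promoter held 4 GC boxes at a GC content of 80%. *Mmp10* differed from them, with 1 AP-1 motif, no GC box, and a GC content of 37.2%. None of the 6 sequences held the cAMP response element. Of 32851 promoters of the same length, taken without regard to the level of the gene, 32.7% held the GC box, 6.75% the AP-1 motif, and 1.55% the cAMP response element. Among the 20 promoters of the 17 matched members with a mean of at least 1 RPKM, 14 held the GC box, 2 the AP-1 motif, and 0 the cAMP response element. The 2 sets are unlike in expression level, and the share among all genes tested was not computed. These are matches of letters and do not mark bound sites.

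*Timp2* RNA was the most abundant of all members, at a 12-sample mean of 821 RPKM and 38.6% of the summed RPKM of the 84. *Mmp14*, the membrane-type collagenase MT1-MMP, followed at 459 RPKM and made up 87.8% of the summed RPKM of the MMPs. *Adam9*, *Adam10*, *Timp1*, and *Adam17* came next, at 257, 140, 139, and 80.2 RPKM. These 6 genes together held 89.3% of the summed member RPKM. A mean of at least 10 RPKM was found in 14 members, and 7 more lay between 1 and 10 RPKM. The gelatinase genes *Mmp2* and *Mmp9* were at 0.612 and 0.0625 RPKM, the collagenase gene *Mmp13* at 0.0292, and *Timp3* at 0.00250 RPKM. Another 22 members were listed at 0 in all samples, among them *Timp4*, *Mmp7*, *Mmp8*, and 12 ADAMs, mostly genes known from the testis. The last 3 members above the 1 RPKM limit were *Adam8* at 1.33, *Mmp12* at 1.23, and *Adamts6* at 1.05 RPKM, and the next 3 under it were *Adamts10* at 0.942, *Mmp10* at 0.849, and *Mmp15* at 0.830 RPKM.

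**Figure D1:**
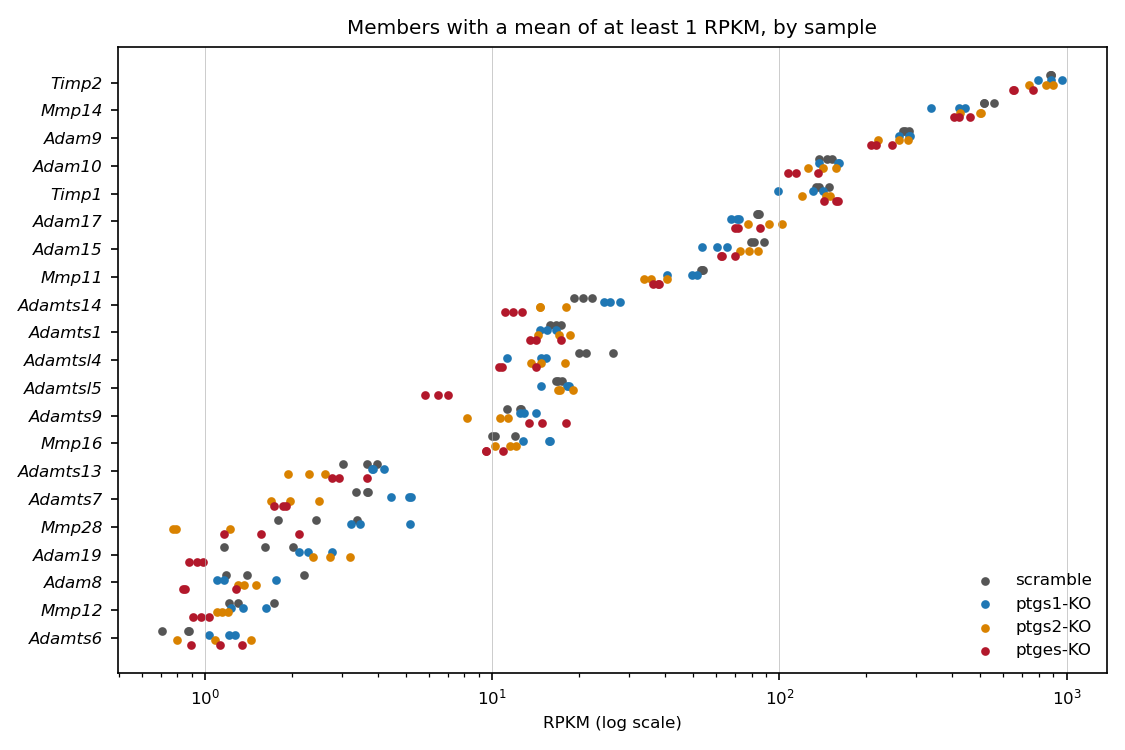
RPKM of the 21 members with a mean of at least 1 RPKM on a log axis, with 1 point per sample, 3 samples per line, and the lines in colors. *Timp2* and *Mmp14* lie highest in every sample, and the *ptges*-KO points of *Adamtsl5* lie apart, between 5.85 and 7.02 RPKM.

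To ask which members differed between the lines, log2(RPKM + 1) values of the 11282 genes that averaged 1 RPKM or more were compared with limma, and p-values were adjusted over all these genes (Benjamini-Hochberg). A gene was called at an adjusted p under 0.05, and a fold change is given as a log2 difference on the log2(RPKM + 1) scale with its standard error, which understates changes of genes near 1 RPKM. Over the 4 groups, 14 of the 21 members (66.7%) differed by limma's F test, beside 38.6% of all genes tested. In *ptges*-KO cells 10 members were lower than in scramble cells (47.6%, beside 14.4% of all genes) and 0 were higher (beside 11.9%). In *ptgs2*-KO cells 6 were lower (28.6%, beside 5.17%) and 1 was higher (4.76%, beside 5.97%). In *ptgs1*-KO cells 3 were lower (14.3%, beside 4.61%) and 1 was higher (4.76%, beside 4.65%). The median log2 fold change of the 21 members was -0.30 in *ptges*-KO, -0.10 in *ptgs2*-KO, and 0.01 in *ptgs1*-KO cells, and that of all genes was -0.03, 0.01, and 0.01. These 3 comparisons share the scramble samples. The RNA is from bulk cultures, so fewer cells with a transcript and less of it per cell cannot be told apart.

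With quantile normalization the members called in *ptges*-KO cells were 2 higher and 10 lower, and with trends of transcript length and GC content removed they were 1 higher and 10 lower. The calls over all genes were 1342 higher and 1627 lower of 11282 as deposited, 1870 higher and 1606 lower with quantile normalization, and 2354 higher and 1785 lower of 10663 with these trends removed. In *ptgs1*-KO cells the members called were 3 higher and 4 lower with scaling by the median ratio and 2 higher and 3 lower with quantile normalization. Over all genes there were 525 higher and 520 lower in that line as deposited, 758 and 762 with scaling by the median ratio, and 805 and 765 with quantile normalization.

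**Figure D2:**
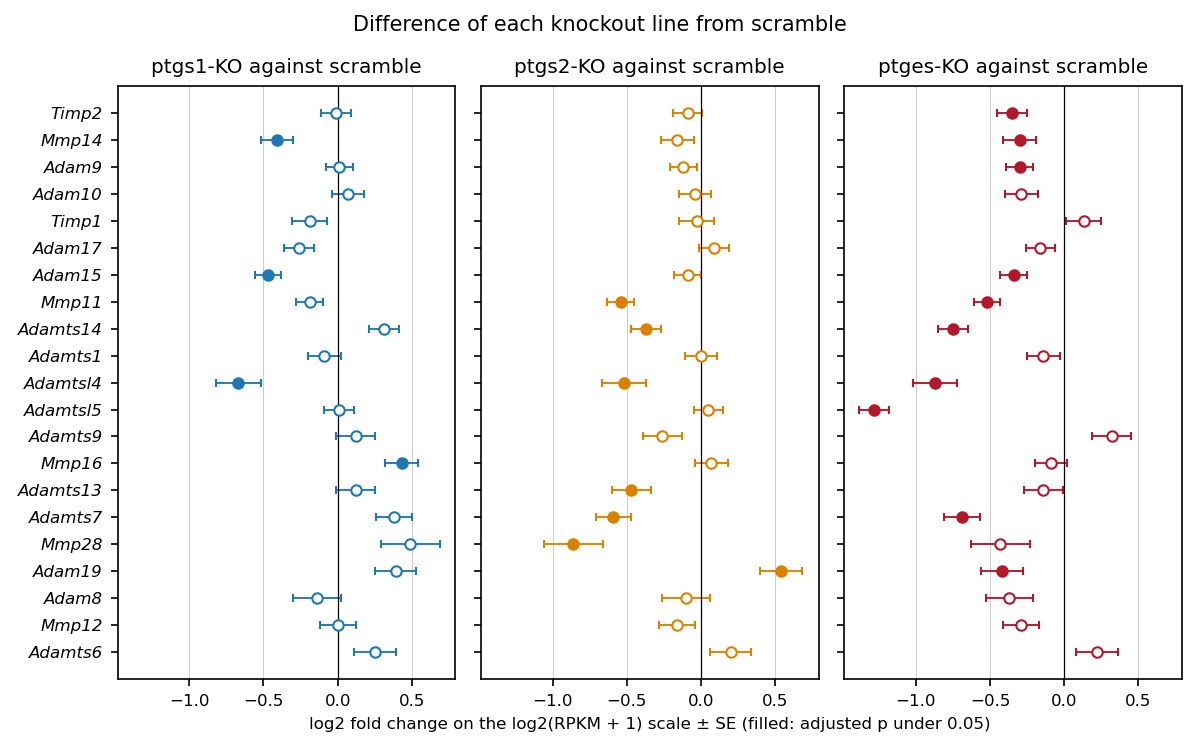
Log2 fold change against scramble cells on the log2(RPKM + 1) scale for the 21 members, ordered by mean level, with bars of ± 1 standard error and 3 samples per line. Filled points have an adjusted p under 0.05 by limma: 4 in *ptgs1*-KO, 7 in *ptgs2*-KO, and 10 in *ptges*-KO cells, and all 10 of the last lie to the left of 0.

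Among the inhibitors, *Timp2* fell in *ptges*-KO cells and *Timp1* did not pass the test in any line. *Timp2* was at 879, 884, and 882 RPKM in scramble, 964, 882, and 796 in *ptgs1*-KO, 897, 850, and 741 in *ptgs2*-KO, and 766, 658, and 650 in *ptges*-KO cells. All 3 *ptges*-KO samples were below all scramble samples, while the other lines overlapped with scramble. The mean of 691 ± 64.6 RPKM (SD, n = 3) was 78.4% of the scramble mean, with a log2 fold change of -0.35 ± 0.10 (SE; limma adjusted p = 0.0201). *Timp1*, whose product inhibits most secreted MMPs, was at 138, 148, and 134 RPKM in scramble, 130, 142, and 99.1 in *ptgs1*-KO, 120, 150, and 145 in *ptgs2*-KO, and 158, 143, and 160 in *ptges*-KO cells. Each knockout line overlapped with scramble, and the fold change in *ptges*-KO cells was 0.13 ± 0.12 (adjusted p = 0.476). The *ptges*-KO samples lay above all *ptgs1*-KO samples, a difference of 0.32 ± 0.12 that did not pass (adjusted p = 0.0629). The call of *Timp2* did not pass without scramble replicate 1, 2, or 3 or without *ptges*-KO replicate 2 or 3 (adjusted p from 0.0541 to 0.0810). The gene lies at chr11:118301069-118355740 (GRCm38).

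The membrane-type MMPs *Mmp14* and *Mmp16* moved in opposite directions in *ptgs1*-KO cells. *Mmp14* values were 516, 559, and 516 RPKM in scramble, 442, 422, and 338 in *ptgs1*-KO, 498, 504, and 427 in *ptgs2*-KO, and 462, 406, and 421 in *ptges*-KO cells. Every knockout sample was below every scramble sample. The fall passed the test in *ptgs1*-KO (-0.41 ± 0.11, limma adjusted p = 0.0266) and in *ptges*-KO cells (-0.30 ± 0.11, adjusted p = 0.0488), and in *ptgs2*-KO cells the value was -0.16 ± 0.11 (adjusted p = 0.360). *Mmp16* (MT3-MMP) was at 9.98, 11.98, and 10.2 RPKM in scramble, 15.9, 15.8, and 12.8 in *ptgs1*-KO, 11.5, 12.1, and 10.2 in *ptgs2*-KO, and 10.9, 9.48, and 9.51 in *ptges*-KO cells. Only the *ptgs1*-KO samples lay above all scramble samples, at a mean of 14.8 ± 1.77 RPKM, and the rise was 0.43 ± 0.11 (adjusted p = 0.0293). Without *ptgs1*-KO replicate 3 the *Mmp14* value in that line was -0.30 (adjusted p = 0.0661), and its call was also lost without scramble replicate 1, 2, or 3 (adjusted p from 0.0633 to 0.105). In *ptges*-KO cells the *Mmp14* call was lost without any 1 of the scramble samples, *ptgs1*-KO replicate 2, *ptgs2*-KO replicate 2, and *ptges*-KO replicates 2 and 3, with adjusted p from 0.0570 to 0.159. That of *Mmp16* was lost without scramble replicate 1 or 3 or *ptgs1*-KO replicate 1 or 2.

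Of the 3 secreted MMPs above the limit, *Mmp11* fell in *ptgs2*-KO and *ptges*-KO cells and *Mmp28* in *ptgs2*-KO cells. *Mmp11*, or stromelysin-3, an MMP that is activated inside the cell by furin, was at 53.5, 53.8, and 54.4 RPKM in scramble, 49.8, 51.6, and 40.7 in *ptgs1*-KO, 35.8, 40.6, and 33.8 in *ptgs2*-KO, and 36.2, 38.1, and 37.7 in *ptges*-KO cells. All 9 knockout samples were below the scramble range. The fold change was -0.54 ± 0.09 in *ptgs2*-KO (limma adjusted p = 0.00250), -0.52 ± 0.09 in *ptges*-KO (adjusted p = 0.00156), and -0.19 ± 0.09 in *ptgs1*-KO cells (adjusted p = 0.241). *Mmp28* (epilysin) was low and varied within the lines, at 1.79, 2.44, and 3.39 RPKM in scramble, 3.46, 5.15, and 3.23 in *ptgs1*-KO, 1.22, 0.79, and 0.77 in *ptgs2*-KO, and 2.13, 1.16, and 1.56 in *ptges*-KO cells. Its *ptgs2*-KO samples were below all scramble samples, at 36.5% of the scramble mean (-0.86 ± 0.20, adjusted p = 0.0144). The value was -1.34 with a pseudocount of 0.1. This call was lost without scramble replicate 3 or *ptgs2*-KO replicate 2 or 3. *Mmp28* overlaps 1700020L24Rik (3.52 RPKM) on the opposite strand, and whether the counting used strand was not given in the sources used here. *Mmp12*, the macrophage elastase, did not pass in any line, at group means from 0.970 to 1.41 RPKM, and passed in *ptges*-KO cells with eBayes without trend (-0.29, limma adjusted p = 0.0414).

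ADAM sheddases were lower in *ptges*-KO cells for 3 of the 6 above the limit, *Adam9*, *Adam15*, and *Adam19*. *Adam9* was at 270, 273, and 282 RPKM in scramble, 284, 284, and 261 in *ptgs1*-KO, 279, 261, and 220 in *ptgs2*-KO, and 247, 217, and 208 in *ptges*-KO cells. The *ptges*-KO samples were below all scramble samples, and the fold change was -0.30 ± 0.09 (limma adjusted p = 0.0320). *Adam10*, the main sheddase of Notch receptors and of several ErbB ligands, was at 137, 146, and 152 RPKM in scramble, 161, 160, and 138 in *ptgs1*-KO, 158, 142, and 126 in *ptgs2*-KO, and 136, 114, and 107 in *ptges*-KO cells. Its *ptges*-KO samples also lay below the scramble samples, but -0.29 ± 0.11 did not pass (adjusted p = 0.0598). Among other alternatives, it passed with scaling by the median ratio (adjusted p = 0.0238), with quantile normalization (0.0206), and with the length and GC trends removed (0.00148). *Adam17* (TACE), which releases TNF and amphiregulin, was at 83.5, 84.2, and 85.1 RPKM in scramble, 72.2, 71.0, and 67.9 in *ptgs1*-KO, 102, 92.0, and 77.6 in *ptgs2*-KO, and 85.5, 72.0, and 69.8 in *ptges*-KO cells. The *ptgs1*-KO samples were below all scramble samples at 83.5% of their mean, and the values against scramble did not pass in any line (adjusted p = 0.135 in *ptgs1*-KO cells). The *ptgs1*-KO value passed with scaling by the median ratio (-0.27, adjusted p = 0.0463) and with the length and GC trends removed (-0.29, 0.00669), as did that of *ptges*-KO cells in the latter (-0.19, 0.0357). *Adam17* overlaps *Iah1* (23 RPKM) on the opposite strand. The *Adam9* call was lost without scramble replicate 1, 2, or 3 or *ptges*-KO replicate 2 or 3, with adjusted p from 0.0664 to 0.120.

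*Adam15* and *Adam19* differed from each other in which lines moved. *Adam15*, which carries an integrin-binding motif, was at 81.8, 88.1, and 79.8 RPKM in scramble, 65.8, 60.5, and 53.9 in *ptgs1*-KO, 78.2, 84.2, and 72.8 in *ptgs2*-KO, and 70.2, 62.5, and 63.3 in *ptges*-KO cells. *ptgs1*-KO and *ptges*-KO samples were below all scramble samples, and *ptgs2*-KO samples overlapped with them. Its fold change was -0.47 ± 0.09 in *ptgs1*-KO (limma adjusted p = 0.00436) and -0.34 ± 0.09 in *ptges*-KO cells (adjusted p = 0.0118). The latter became -0.15 (adjusted p = 0.0539) with the length and GC trends removed, and was not called without scramble replicate 2 (0.0522) or *ptges*-KO replicate 2 (0.0536). *Adam19*, a sheddase of neuregulins, was at 1.16, 2.03, and 1.62 RPKM in scramble, 2.76, 2.13, and 2.28 in *ptgs1*-KO, 2.73, 3.19, and 2.37 in *ptgs2*-KO, and 0.98, 0.88, and 0.94 in *ptges*-KO cells. It was highest in *ptgs2*-KO and lowest in *ptges*-KO cells, with no overlap of either with scramble. The *ptgs1*-KO samples also lay above all scramble samples, at 0.39 ± 0.14, which did not pass (adjusted p = 0.113). The rise in *ptgs2*-KO cells was 0.54 ± 0.14 (adjusted p = 0.0275) and the fall in *ptges*-KO cells -0.42 ± 0.14 (adjusted p = 0.0464). The fall was lost in 14 of 21 alternatives, 8 of them leaving out scramble replicate 2 or 3, *ptgs1*-KO replicate 2, *ptgs2*-KO replicate 1 or 2, or *ptges*-KO replicate 1, 2, or 3 (adjusted p from 0.0524 to 0.172). Quantile normalization brought it to -0.24 (adjusted p = 0.227), and a pseudocount of 0.1 to -0.69. The rise was lost without scramble replicate 1 or 3 or *ptgs2*-KO replicate 1 or 2, with adjusted p from 0.0647 to 0.119. *Adam8*, at group means from 0.990 to 1.59 RPKM, did not pass in any line.

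**Figure D3:**
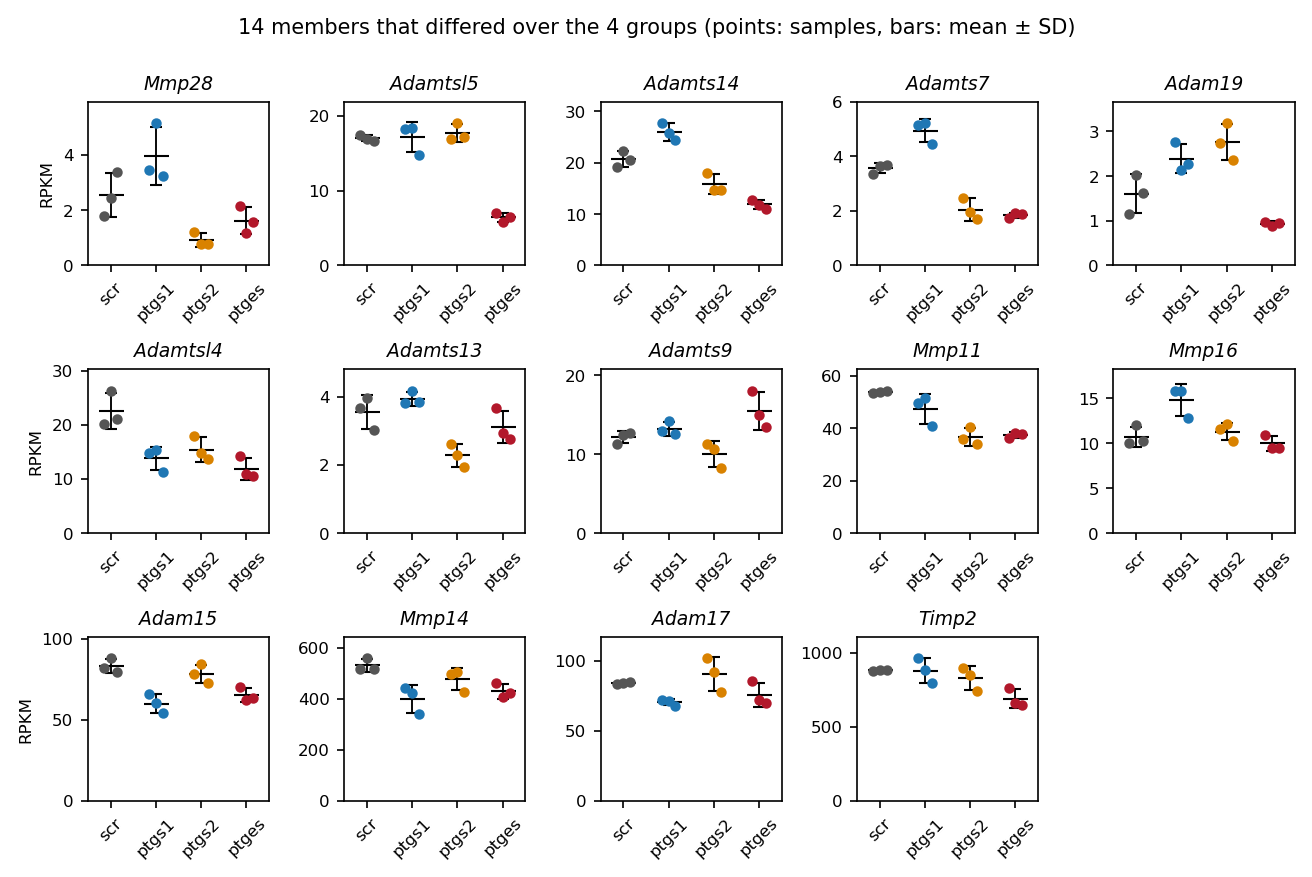
RPKM of the 14 members that differed over the 4 groups by limma's F test, with 1 point per sample, the mean, and ± 1 SD (n = 3), on linear axes that start at 0. *Adamtsl5* is low only in *ptges*-KO cells, *Adamts7* is low in *ptgs2*-KO and *ptges*-KO cells, and *Mmp14* is below the scramble samples in all 3 knockout lines.

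The ADAMTS proteases *Adamts14* and *Adamts7* fell in *ptgs2*-KO and *ptges*-KO cells and were above the scramble range in *ptgs1*-KO cells. *Adamts14*, a procollagen N-proteinase that trims fibrillar procollagens, was at 19.2, 22.3, and 20.6 RPKM in scramble, 27.8, 25.7, and 24.5 in *ptgs1*-KO, 18.1, 14.6, and 14.7 in *ptgs2*-KO, and 12.7, 11.8, and 11.1 in *ptges*-KO cells. The 4 lines did not overlap in this gene. Against scramble the fold change was -0.75 ± 0.10 in *ptges*-KO (limma adjusted p = 1.7e-04), -0.37 ± 0.10 in *ptgs2*-KO (adjusted p = 0.0300), and 0.31 ± 0.10 in *ptgs1*-KO cells (adjusted p = 0.0709). The gene lies at chr10:61197112-61273438, and the other 2 procollagen N-proteinases were under 1 RPKM. *Adamts7*, which cleaves cartilage oligomeric matrix protein and thrombospondin-1, was at 3.36, 3.66, and 3.70 RPKM in scramble, 5.14, 5.23, and 4.45 in *ptgs1*-KO, 2.49, 1.97, and 1.69 in *ptgs2*-KO, and 1.73, 1.91, and 1.87 in *ptges*-KO cells. Samples of *ptgs2*-KO and *ptges*-KO cells overlapped with each other and not with scramble. The fold changes were -0.59 ± 0.12 (adjusted p = 0.00638) and -0.69 ± 0.12 (adjusted p = 0.00105), and 0.38 ± 0.12 in *ptgs1*-KO cells (adjusted p = 0.0651). *Adamts7* (chr9:90163069-90208071) overlaps *Tbc1d2b* (11.3 RPKM) on the opposite strand. Scaling by the median ratio brought the *ptgs1*-KO values past the threshold for *Adamts14* (0.30, adjusted p = 0.0422) and *Adamts7* (0.36, adjusted p = 0.0336). The *Adamts14* call in *ptgs2*-KO cells was lost without scramble replicate 2 or 3 or *ptgs2*-KO replicate 2 or 3, with a range over the alternatives of -0.47 to -0.27.

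*Adamts13* and *Adamts9* were lowest in *ptgs2*-KO cells. *Adamts13*, the protease of von Willebrand factor, was at 3.67, 3.97, and 3.01 RPKM in scramble, 3.81, 4.18, and 3.83 in *ptgs1*-KO, 2.61, 2.30, and 1.94 in *ptgs2*-KO, and 3.66, 2.93, and 2.77 in *ptges*-KO cells. Only the *ptgs2*-KO samples were all below the scramble samples (-0.47 ± 0.13, limma adjusted p = 0.0309). This call was lost in 8 of 21 alternatives, among them those without scramble replicate 1 or 2 or *ptgs2*-KO replicate 2 or 3 and quantile normalization. *Adamts9*, a proteoglycanase, was at 11.3, 12.5, and 12.6 RPKM in scramble, 12.9, 14.2, and 12.5 in *ptgs1*-KO, 11.3, 10.6, and 8.19 in *ptgs2*-KO, and 18.0, 14.9, and 13.4 in *ptges*-KO cells. Its *ptges*-KO samples lay above the scramble samples, at 0.32 ± 0.13 (adjusted p = 0.0812). That value passed with scaling by the median ratio (0.34, adjusted p = 0.0323), with quantile normalization (0.38, 0.0182), and with the length and GC trends removed (0.46, 7.0e-04). *Adamts1*, another proteoglycanase, had group means from 15.0 to 16.7 RPKM and passed in no line. *Adamts6* had means from 0.820 RPKM in scramble to 1.17 in *ptgs1*-KO cells and did not pass in any line, but in *ptges*-KO cells it was called higher with quantile normalization (0.41, limma adjusted p = 0.0359).

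On the log2(RPKM + 1) scale, the widest fall of the 21 members against scramble was that of *Adamtsl5* in *ptges*-KO cells, while as a share of the scramble mean *Mmp28* was slightly lower in *ptgs2*-KO cells. ADAMTS-like proteins share the ancillary domains of ADAMTS proteases, lack the catalytic domain, and bind fibrillin microfibrils. *Adamtsl5* (chr10:80339110-80348412) was at 17.5, 16.9, and 16.7 RPKM in scramble, 18.3, 18.4, and 14.8 in *ptgs1*-KO, 16.9, 19.1, and 17.2 in *ptgs2*-KO, and 7.02, 5.85, and 6.49 in *ptges*-KO cells. The *ptges*-KO samples were below all other 9 samples. Their mean of 6.45 ± 0.586 RPKM was 37.9% of the scramble mean (-1.28 ± 0.10, limma adjusted p = 1.7e-06), and in *ptgs1*-KO and *ptgs2*-KO cells the fold changes were 0.01 and 0.05. *Adamtsl4* (chr3:95676201-95687917) was at 20.1, 26.4, and 21.1 RPKM in scramble, 14.8, 15.4, and 11.3 in *ptgs1*-KO, 18.0, 14.8, and 13.6 in *ptgs2*-KO, and 14.2, 10.9, and 10.5 in *ptges*-KO cells. Every knockout sample was below every scramble sample, and all 3 lines passed the test. The fall was -0.67 ± 0.15 in *ptgs1*-KO (adjusted p = 0.0133), -0.52 ± 0.15 in *ptgs2*-KO (0.0443), and -0.87 ± 0.15 in *ptges*-KO cells (0.00116). In *ptgs2*-KO cells it was lost in 11 of 22 alternatives, among them those without scramble replicate 1, 2, or 3, *ptgs1*-KO replicate 1, *ptgs2*-KO replicate 2 or 3, or *ptges*-KO replicate 2 or 3. In *ptgs1*-KO cells it was lost without scramble replicate 2 or *ptgs1*-KO replicate 3.

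The counts in each line rested in part on single libraries, and calls over all genes also changed with 1 sample left out. In *ptges*-KO cells the 10 calls became 5 without scramble replicate 2, 6 without scramble replicate 3, 5 without *ptges*-KO replicate 2, and 6 without *ptges*-KO replicate 3. Over all genes, 1342 higher and 1627 lower in this line became 862 and 1334 without scramble replicate 2 and 1017 and 1053 without replicate 3. They became 876 and 1060 without *ptges*-KO replicate 2 and 1122 and 1151 without *ptges*-KO replicate 3. The falls of *Adamtsl5*, *Adamtsl4*, *Adamts14*, *Adamts7*, and *Mmp11* in *ptges*-KO cells passed under each alternative that kept the gene. With the length and GC trends removed the value was -0.45 for *Adamts14* and -0.42 for *Adamts7*. In *ptgs2*-KO cells the 7 calls became 4 without scramble replicate 1 or 2, 3 without scramble replicate 3, 2 without *ptgs2*-KO replicate 2, and 3 without *ptgs2*-KO replicate 3, and those of *Mmp11* and *Adamts7* passed under each alternative that kept the gene. Over all genes, 674 higher and 583 lower became 383 and 339, 345 and 426, and 457 and 372 without scramble replicate 1, 2, or 3. Without *ptgs2*-KO replicate 2 or 3 they became 394 and 491 or 455 and 347. In *ptgs1*-KO cells the 4 calls became 2 without any 1 scramble sample or without *ptgs1*-KO replicate 3. Over all genes, 525 higher and 520 lower became 340 and 305, 322 and 336, and 416 and 315 without scramble replicate 1, 2, or 3. Without *ptgs1*-KO replicate 3 they became 653 and 355. *ptgs1*-KO replicate 3 had the low values of its line for many members, with 20 of 21 below the line mean, as did *ptgs2*-KO replicate 3 with 20 of 21. In *ptges*-KO replicate 1, 3 of 21 members were below the line mean. The median deviation of the 21 members was -0.12, -0.15, and 0.11 in these samples on the log2 scale, and that of all genes -0.10, -0.04, and 0.06.

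The knockout lines were also compared with each other, to ask whether loss of the PGE2 synthase differed from loss of the cyclooxygenases above it. With *ptges*-KO set against *ptgs2*-KO, *Adamtsl5* (-1.33 ± 0.10, limma adjusted p = 1.2e-06), *Adam19* (-0.96 ± 0.14, 4.7e-04), and *Adamts14* (-0.38 ± 0.10, 0.0200) were lower in *ptges*-KO cells. That made 3 of 21 members (14.3%), beside 9.84% of all genes. *Adamts9* was higher (0.58 ± 0.13, adjusted p = 0.00742, and 0.124 with the Tukey test on RPKM), 1 of 21 (4.76%) beside 6.76% of all genes. This number of 4 calls was 6 with the replicate number as a block, which added *Adam15* (-0.26, adjusted p = 0.0376) and *Timp2* (-0.26, 0.0492), 7 without *ptgs2*-KO replicate 3 and 9 without *ptges*-KO replicate 1, and the members called were 3 higher and 5 lower with the length and GC trends removed. Without these trends the *Adamts14* value was -0.18 and no longer called. Its call was also lost without *ptgs2*-KO replicate 1 or *ptges*-KO replicate 2 or 3. Over all genes, *ptges*-KO against *ptgs2*-KO gave 763 higher and 1110 lower in the fit as reported. The counts were 783 and 1228 with the block, 611 and 1171 without *ptgs2*-KO replicate 3, and 773 and 1463 without *ptges*-KO replicate 1. With the trends removed they were 1485 and 1453 of 10663. Against *ptgs1*-KO cells, 10 members were lower in *ptges*-KO cells (47.6%, beside 17.0% of all genes) and 0 higher (beside 13.2%). Of these 10, the calls of *Adam10*, *Adam9*, *Mmp11*, and *Timp2* were lost without *ptgs1*-KO replicate 1 and also without replicate 2, and those of *Adam10*, *Adam9*, and *Timp2* without *ptges*-KO replicate 2 or 3. Between *ptgs2*-KO and *ptgs1*-KO cells, 7 were lower in *ptgs2*-KO cells (33.3%, beside 11.6%) and 2 higher (9.52%, beside 12.1%). The calls of *Adamts9*, *Mmp11*, and *Mmp16* were lost without *ptgs1*-KO replicate 1 or 2, and that of *Adam17*, 1 of the 2 higher, without *ptgs1*-KO replicate 3 or *ptgs2*-KO replicate 1 or 2. The comparisons share samples, so their counts are not independent.

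Members under 1 RPKM were fitted without the filter, together with all 18623 genes above 0 in any sample. Of the 84 members, 41 were above 0 but under the 1 RPKM limit, with 26 below 0.1 RPKM. In *ptges*-KO cells 6 of the 41 were called (14.6%, beside 16.1% of all genes in this fit). The number was 1 in *ptgs2*-KO (2.44%, beside 7.04%), 3 in *ptgs1*-KO cells (7.32%, beside 6.36%), and 5 for *ptges*-KO against *ptgs2*-KO (12.2%, beside 10.0%). *Mmp15*, *Mmp10*, *Mmp3*, *Adamts10*, and *Mmp19* reached 1 RPKM in the mean of at least 1 line. Since that rule used the group means, their values are a description, with no test. *Mmp15* (MT2-MMP) was at 1.12, 1.38, and 1.60 RPKM in scramble, 0.41, 0.60, and 0.41 in *ptgs1*-KO, 1.44, 1.26, and 0.97 in *ptgs2*-KO, and 0.32, 0.30, and 0.15 in *ptges*-KO cells. All its *ptgs1*-KO and *ptges*-KO samples were below the scramble range.

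The stromelysin genes *Mmp10* and *Mmp3* had their highest means in *ptges*-KO cells. *Mmp10* was at 0.31, 0.91, and 0.61 RPKM in scramble, 1.04, 0.70, and 0.38 in *ptgs1*-KO, 0.53, 0.72, and 0.52 in *ptgs2*-KO, and 1.46, 1.60, and 1.41 in *ptges*-KO cells. All *ptges*-KO samples were above the other 9. *Mmp3*, of the same MMP cluster on chromosome 9, was at 0.36, 0.55, and 0.78 RPKM in scramble and 0.68, 1.05, and 1.31 in *ptges*-KO cells, which overlapped. *Adamts10* had a mean of 1.27 RPKM in scramble and 0.707 in *ptges*-KO cells. *Mmp19* had means from 0.633 to 1.06 RPKM.

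*Adamtsl3*, which was chosen after its values were seen, had the largest relative change of these low members. It was at 0.07, 0.02, and 0.06 RPKM in scramble, 0.13, 0.15, and 0.06 in *ptgs1*-KO, 0.02, 0.07, and 0.02 in *ptgs2*-KO, and 1.11, 0.95, and 0.92 in *ptges*-KO cells. The lowest *ptges*-KO sample was above all other 9 samples, and the fold change against scramble was 0.92 ± 0.04. Since the gene was picked by these values, they are a description, with no test. The gene lies at chr7:82335694-82614450 and was higher in *ptges*-KO cells, while the ADAMTS-like genes *Adamtsl4* and *Adamtsl5* were lower. *Adam1a*, *Adamts4*, and *Adamts5*, also chosen after their values were seen, were at 53.1%, 23.9%, and 54.8% of the scramble mean in *ptges*-KO cells, again a description. *Adam1a* overlaps *Mapkapk5* on the same strand, and the *Adamts4* value, from 0.307 to 0.0733 RPKM, is uncertain since its locus overlaps another gene. *Mmp2*, the gelatinase that MMP-14 activates, had 0.78, 0.61, and 0.49 RPKM in scramble, 0.96, 1.14, and 0.78 in *ptgs2*-KO, and 0.43, 0.21, and 0.33 in *ptges*-KO cells. Samples of the last 2 lines did not overlap (-0.57 ± 0.09, a description with no test). Against scramble *Mmp2* did not pass in any line.

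**Figure D4:**
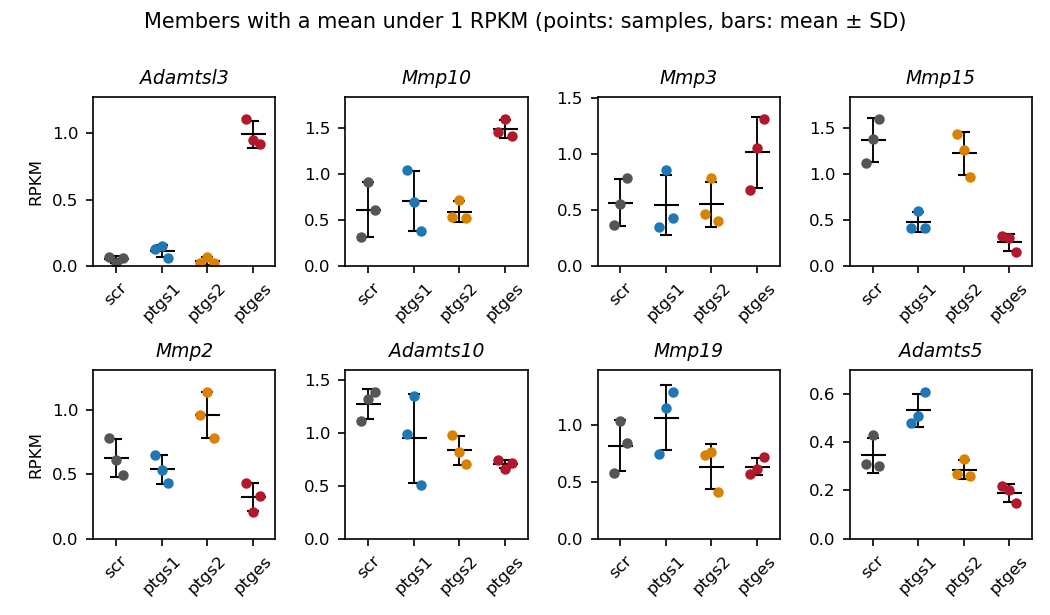
RPKM of 8 members with a mean under 1 RPKM, with 1 point per sample, the mean, and ± 1 SD (n = 3), on linear axes that start at 0. *Adamtsl3* lies at 0.92 to 1.11 RPKM in *ptges*-KO and at most at 0.15 RPKM in all other samples, and *Mmp15* is low in *ptgs1*-KO and *ptges*-KO cells.

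Other genes of the pathway were taken from a list of 34 that holds the plasminogen system, proprotein convertases, regulators of MMPs, and partners of ADAMs, and 17 of them had a mean of at least 1 RPKM. In *ptges*-KO cells 7 of the 17 fell and 2 rose, beside 14.4% and 11.9% of all genes. In *ptgs2*-KO cells 3 fell and 0 rose (beside 5.17% and 5.97%), and in *ptgs1*-KO cells 4 fell and 0 rose (beside 4.61% and 4.65%). Set against *ptgs2*-KO, *ptges*-KO cells had 5 lower and 1 higher (beside 9.84% and 6.76%). The plasminogen activators moved apart. *Plau*, the gene of urokinase, was at 3.96, 3.67, and 3.73 RPKM in scramble, 0.36, 0.39, and 0.40 in *ptgs1*-KO, 2.68, 4.30, and 3.27 in *ptgs2*-KO, and 6.12, 5.21, and 5.42 in *ptges*-KO cells. It fell in *ptgs1*-KO cells to 10.1% of the scramble mean (-1.79 ± 0.13, limma adjusted p = 1.0e-06, and -3.01 with a pseudocount of 0.1) and rose in *ptges*-KO cells (0.46 ± 0.13, adjusted p = 0.0209). *Plat*, the gene of tissue plasminogen activator, was at 51.8, 54.0, and 49.6 RPKM in scramble, 60.1, 58.7, and 45.1 in *ptgs1*-KO, 33.8, 32.9, and 27.5 in *ptgs2*-KO, and 19.2, 20.4, and 21.8 in *ptges*-KO cells. Its *ptgs2*-KO and *ptges*-KO samples were below the scramble range and did not overlap with each other, with -0.71 ± 0.11 (adjusted p = 0.00137) and -1.30 ± 0.11 (adjusted p = 3.7e-06).

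*Lrp1*, an endocytic receptor that clears MMPs, TIMPs, and plasminogen activators, fell in *ptges*-KO cells from 548 to 301 RPKM (-0.88 ± 0.15, limma adjusted p = 9.5e-04). Its *ptgs2*-KO samples were also below all scramble samples, at 73.9% of their mean, without passing (-0.45 ± 0.15, adjusted p = 0.0692). The *Lrp1* difference between *ptges*-KO and *ptgs2*-KO cells did not pass either (-0.43 ± 0.15, adjusted p = 0.0634). *Tspan15*, a tetraspanin partner of ADAM10, was below scramble in all 3 lines, at 67.1% of the scramble mean in *ptgs1*-KO, 71.4% in *ptgs2*-KO, and 66.3% in *ptges*-KO cells. Each of these 3 falls of *Tspan15* passed, with adjusted p = 0.00151, 0.00531, and 6.6e-04. The falls of *Plau* in *ptgs1*-KO, *Plat* and *Lrp1* in *ptges*-KO, and *Tspan15* in all 3 lines passed under each alternative that kept the gene, with *Lrp1* at -0.44 once the length and GC trends were removed. The rise of *Plau* was lost without scramble replicate 2 or 3 or *ptges*-KO replicate 1 (0.39 to 0.58 over the alternatives). The 9 calls of the list in *ptges*-KO cells became 5 without scramble replicate 2 or 3. In *ptgs1*-KO cells the 4 calls became 2 without scramble replicate 1 or 2 or *ptgs1*-KO replicate 3, and the 6 calls of *ptges*-KO against *ptgs2*-KO became 3 without any 1 scramble sample or *ptges*-KO replicate 2 or 3.

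**Figure D5:**
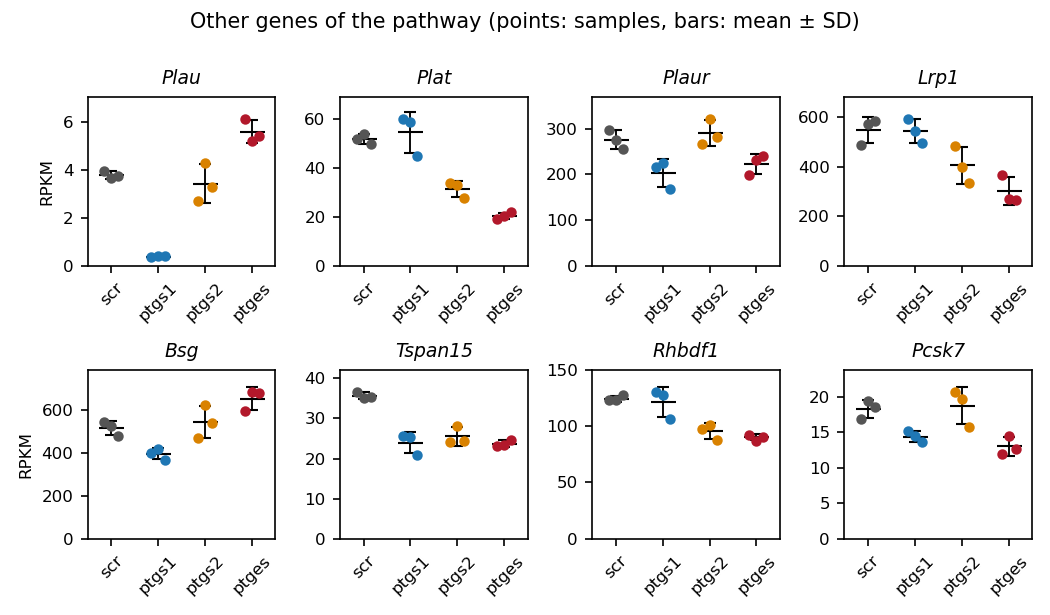
RPKM of 8 other genes of the pathway, with 1 point per sample, the mean, and ± 1 SD (n = 3), on linear axes that start at 0. *Plau* lies at 0.36 to 0.40 RPKM in *ptgs1*-KO cells, *Plat* is lower in *ptgs2*-KO and lowest in *ptges*-KO cells, and *Tspan15* is below scramble in each knockout line.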

How the data were processed

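RNA from 12 samples of murine BrafV600E melanoma cells was sequenced as directional paired-end mRNA libraries, 3 samples in each of 4 groups given by the labels. The authors deposited 1 table of RPKM values to 2 decimals (their text also calls them normalized counts). The submitters' processing notes name the build mm10, and the aligner, the counter, and the use of strand are not given in the sources used here. The step between low values of short genes gave a depth of about 13.2 to 17 M reads per sample, weakly determined, so no counting intervals were computed. At that depth *Adam8*, which had the fewest reads of the 21 members above the filter, rested on about 54.7 to 70.4 reads at its mean.

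Genes that averaged 1 RPKM or more across all samples were tested on log2(RPKM + 1) (pseudocount 1) with limma 3.58.1 in R 4.3.3 (lmFit, contrasts, eBayes with trend), all 12 samples in 1 model, with Benjamini-Hochberg adjustment over all 11282 genes and a threshold of 0.05. The study compared groups with a Tukey test, which was used here on RPKM as an alternative. Its p-values were here further adjusted over all genes tested (Benjamini-Hochberg), a step that the study's methods do not name. A call lost in this alternative is therefore not a failure of the study's own test. GENCODE M21 (GRCm38) supplied length, GC content, and position for 94.5% of these genes and for all 84 members. Promoters came from RefSeq GRCm38.p6. Figures were drawn with matplotlib 3.10.9 in Python 3.11.15.

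The members and lists were chosen with earlier results of these data known, and some genes are not reported here. Named were all members with a mean of at least 1 RPKM overall or in 1 group, with values in every sample for the 14 with the widest range of group means among those past the F test and the 6 with the highest mean. Other pathway genes were named where they passed with a log2 fold change of at least 0.5 in size. As alternatives served quantile normalization, median-ratio scaling, a pseudocount of 0.1, a filter at 10 RPKM, no filter, the replicate number as a block, only the 2 groups compared, eBayes without trend, the Tukey test on RPKM, and each sample left out. A loess correction (span 0.3) for transcript length and GC content was added after the data were seen. The limma step was tested on simulated data with 200 changed genes.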

Additional observations from a re-analysis of the deposited data

Results flagged for a closer look

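Members are given here whose samples all lay above the scramble mean in 1 knockout line and all below it in another, with a difference between these lines that passed limma's test (adjusted p under 0.05 over all genes). For *Adam19* in *ptges*-KO cells the log2 difference was -0.96 from *ptgs2*-KO (adjusted p = 4.7e-04) and -0.81 from *ptgs1*-KO cells (adjusted p = 9.4e-04), or -1.46 and -1.26 with a pseudocount of 0.1. For *Adamts14* the difference from *ptgs1*-KO cells was -1.07 in *ptges*-KO (adjusted p = 4.2e-06, and -0.67 with the length and GC trends removed) and -0.69 in *ptgs2*-KO cells (adjusted p = 2.8e-04). *Adamts7* gave -1.06 (adjusted p = 1.9e-05) and -0.97 (adjusted p = 5.9e-05) in the same comparisons. The *Mmp28* values were -0.91 (adjusted p = 0.00395) and -1.35 (adjusted p = 3.1e-04), again for *ptges*-KO and *ptgs2*-KO against *ptgs1*-KO cells. *Adamts13* was lower in *ptgs2*-KO than in *ptgs1*-KO cells by -0.59 (adjusted p = 0.00420). *Adamts9* was higher in *ptges*-KO cells, by 0.58 against *ptgs2*-KO (adjusted p = 0.00742), and lower in *ptgs2*-KO than in *ptgs1*-KO cells by -0.37 (adjusted p = 0.0483), a call that was lost in 12 of 22 alternatives, among them leaving out any 1 sample of scramble or *ptgs1*-KO cells, *ptgs2*-KO replicate 2 or 3, or *ptges*-KO replicate 2, with values from -0.46 to -0.25.

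In *ptgs1*-KO cells the difference from scramble itself did not pass for *Adam19* (0.39, adjusted p = 0.113), *Adamts14* (0.31, 0.0709), *Adamts7* (0.38, 0.0651), *Mmp28* (0.49, 0.159), *Adamts13* (0.12, 0.610), or *Adamts9* (0.12, 0.637). Only *Adam19* passed against scramble in both directions, higher in *ptgs2*-KO and lower in *ptges*-KO cells, in the fit as reported.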

How the results depend on the processing

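None of the member calls changed direction under any alternative. Of 21 calls against scramble, 7 passed under each alternative that kept the gene. Each of the remaining calls was lost with the Tukey test on RPKM, whose p-values were adjusted over all genes. Some were also lost under alternatives other than the left-out samples named above. The Tukey test on RPKM gave 0 members in *ptgs1*-KO, 2 in *ptgs2*-KO, and 5 in *ptges*-KO cells, and 2 for *ptges*-KO against *ptgs2*-KO. Over all genes it gave 223 higher and 138 lower, 273 and 147, 634 and 517, and 321 and 318 in the same order. Without the filter on low values, which adds 41 members, there were 7 in *ptgs1*-KO cells and 9 for *ptges*-KO against *ptgs2*-KO. A mean of at least 10 RPKM, which tests fewer members, gave 3 in *ptgs2*-KO cells, and only the 2 groups compared in the model gave 4. Scaling by the median ratio gave 7 in *ptgs1*-KO cells, and removal of the length and GC trends 8 for *ptges*-KO against *ptgs2*-KO. With 1 sample left out, the number was 2 to 6 in *ptgs1*-KO, 2 to 7 in *ptgs2*-KO, and 5 to 11 in *ptges*-KO cells, 3 to 9 for *ptges*-KO against *ptgs2*-KO, and 11 to 16 over the 4 groups. Where not stated, the cause was not tested.

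With the replicate number as a block, 10 members were called in *ptges*-KO cells, 7 in *ptgs2*-KO cells, 4 in *ptgs1*-KO cells, 6 for *ptges*-KO against *ptgs2*-KO, and 16 over the 4 groups. Same-numbered samples of different lines deviated from their line means with r from -0.341 to 0.566 over 18 pairs (mean 0.0123, and -0.00456 in the 36 pairs with different numbers), and no label ties the numbers, so they were taken to share only a number. Same-numbered *ptgs2*-KO and *ptges*-KO samples had like correlations of their deviations with transcript length, at 0.62 and 0.60, -0.38 and -0.35, and -0.54 and -0.54 for replicates 1, 2, and 3.

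Among the other pathway genes, the 4 calls in *ptgs1*-KO cells became 7 with scaling by the median ratio, with quantile normalization, or with the length and GC trends removed, and 2 without the filter on low values. The 3 calls in *ptgs2*-KO cells became 5 with median-ratio scaling or with the length and GC trends removed. The 6 calls of *ptges*-KO against *ptgs2*-KO became 3 with only the 2 groups in the model or with eBayes without trend. With the Tukey test the calls in the 3 lines became 2, 1, and 4, and those of *ptges*-KO against *ptgs2*-KO became 1. Values near or under 1 RPKM rest on few reads, and small differences there could not be resolved.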

Other observations

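The ratio of *Timp2* to *Mmp14* RPKM, given as a description with no test, was 1.70, 1.58, and 1.71 in scramble cells, 2.18, 2.09, and 2.35 in *ptgs1*-KO, 1.80, 1.69, and 1.74 in *ptgs2*-KO, and 1.66, 1.62, and 1.54 in *ptges*-KO cells. The *ptgs1*-KO samples lay above the other 9. The ratio of *Timp1* to *Mmp14* was 0.260 to 0.267 in scramble, 0.293 to 0.336 in *ptgs1*-KO, 0.240 to 0.340 in *ptgs2*-KO, and 0.341 to 0.380 in *ptges*-KO cells. A ratio shows unequal levels of 2 transcripts and not which of them changed.

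The summed RPKM of the 84 members was 2274 to 2368 in scramble, 1911 to 2302 in *ptgs1*-KO, 1938 to 2283 in *ptgs2*-KO, and 1797 to 2060 in *ptges*-KO cells. ADAMTS and ADAMTS-like genes summed to 94.5 to 104 RPKM in scramble and 89.5 to 104 in *ptgs1*-KO cells. The sums were 73.8 to 90.7 in *ptgs2*-KO and 62.5 to 78.2 in *ptges*-KO cells, and neither of these lines overlapped with scramble.

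Of the 5 members that fell in *ptges*-KO cells under each alternative that kept them, *Adamts14*, *Mmp11*, and *Adamtsl5* lie on chromosome 10. On that chromosome 72 of 515 genes tested were lower in *ptges*-KO cells, a share not above the 14.4% of all genes tested. Whether the shared chromosome bears on the falls was not tested. *Adamts7* lies on chromosome 9 (64 of 597 genes, 10.7%) and *Adamtsl4* on chromosome 3 (78 of 530 genes, 14.7%).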
